A study of Mus musculus with 6 samples.

Results

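The genes of the synaptic vesicle and of the active zone, the stretch of presynaptic membrane where vesicles fuse, were followed in mouse neuro2a (N2a) cells in which the transcription factor NF-Y was knocked down. The list held 57 genes chosen by name for their known role in transmitter release, from the SNARE fusion proteins and their sensors to vesicle transporters, active zone scaffolds and the adhesion proteins of the synapse. No measured value entered the rule, though the list was chosen with earlier results of these data known. For each gene the brightest probe was read, and 49 of the 57 genes reached the signal filter, among 16490 genes tested in all. Of the rest, 6 genes (Syt2, Synpr, Sv2b, Slc17a7, Nlgn1 and Unc13b) lay below the filter, and for 2 genes (Syt5 and Lrrtm4) no probe was matched. The study asked which genes depend on NF-Y in neuronal cells. N2a is an established line from a mouse tumour of immature nerve cells. In the knockdown group, 3 samples labelled as replicates carried vectors that make microRNA-like hairpins against NF-YA and against NF-YC, 2 of the subunits of NF-Y. In the control group, 3 replicates received an empty vector, so the controls carried the transfection but no RNAi hairpin against NF-Y. Both groups were the same line, kept in culture and profiled as whole transfected populations, and the labels give no sorting of transfected cells. Total RNA was hybridised to 1-colour Agilent arrays. Since RNA came from populations of cells, fewer cells that express a gene and less RNA per cell cannot be told apart. The labels do not say whether replicates came from separate cultures, so the p-values measure the spread between these 6 samples, which may be technical.

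NF-Y is a trimer of NF-YA, NF-YB and NF-YC that binds the CCAAT box of many promoters. Synaptic vesicles are loaded with transmitter by transporters of the SLC17, SLC18 and SLC32 families, are held in a reserve by synapsins, and are brought to the active zone by Rab3 proteins, RIMs and the large scaffolds Bassoon and Piccolo. Munc13 proteins prime them, the SNAREs (Vamp2 on the vesicle, Stx1a and Snap25 on the plasma membrane) fuse them, and calcium bound by synaptotagmins triggers the last step while complexins hold it ready. NSF and SNAP proteins then take the SNARE complex apart. Neuroblastoma cells derive from the neural crest, and cells of that lineage use much of the same machinery to release dense-core granules.

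Every level below is the log2 signal of a probe minus the log2 of its array's 75th percentile, so that 0 is the level of the 75th percentile spot, and every change is knockdown minus control on that log2 scale. Levels of different probes are not comparable with each other. A gene was called where limma's Benjamini-Hochberg adjusted p was under 0.05 and the change exceeded 1.5-fold. Both targeted genes were lower. Nfyc, the NF-YC gene, was at 4.0, 3.93 and 3.98 in controls and 2.12, 2.20 and 2.18 after knockdown, a change of -1.81 ± 0.045 (SE, n = 3 per group, adjusted p = 0.000323). Nfya was at 0.14, 0.15 and 0.21 and -0.66, -0.52 and -0.59, a change of -0.76 ± 0.055 (SE, n = 3 per group, adjusted p = 0.00128). Nfyb, the subunit gene that was not targeted, was called higher, from 1.0, 1.05 and 1.18 in controls to 1.91, 1.90 and 1.92 after knockdown, a change of 0.83 ± 0.060 (SE, n = 3 per group, adjusted p = 0.00131). Between 61.9% and 66.2% of the spots of an array were well above background. All 6 arrays came from 1 slide, on which row 1 held the 3 controls and knockdown replicate 1 while row 2 held knockdown replicates 2 and 3. Of 12 markers of neuroblastoma cells and neurons, 11 were well above background on all 6 arrays and Nefl on 0. Their summed level, here the sum of linear signals over the array's 75th percentile, ran from 168 to 174 in controls and from 167 to 171 in knockdown arrays. Such a sum rests on the brightest probes. Within the list Th was called lower (-0.62), and Ncam1 (-0.50), Map2 (-0.30), Stmn2 (-0.25) and Gata3 (0.22) had an adjusted p under 0.05 below the fold limit. Of 10 markers of glia, blood, fibroblasts and endothelium, 7 were well above background on all 6 arrays, Gfap on 5, Aif1 on 1 and Cdh5 on 0. Their summed level ran from 0.971 to 1.03 in controls and from 0.944 to 0.998 in knockdown arrays. Within that list Pdgfra was called higher (1.29) and Col1a1 lower (-0.77), and Ptprc (-0.52) had an adjusted p under 0.05 below the fold limit. The part of such cells in the results was not tested.

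Since NF-Y binds CCAAT, the promoters of the members were searched for that motif. RefSeq promoter windows of build GRCm38.p6 were matched by symbol for 45 of the 57 members and gave 59 windows, and the 250 bases before each start were searched for CCAAT on both strands, which on the printed strand reads CCAAT or ATTGG. The match occurred in 11 of the 59 windows of members (18.6%), against 33.8% of all 32851 windows of the same length in the table. Counted by gene, 11 of 45 members held it (24.4%), against 37.5% of all genes in the table and 39.9% of genes tested. Among all genes with a window, 53.5% of those called lower on the arrays held it and 34.8% of those called higher. Among members it was 2 of 5 called lower, 1 of 4 called higher and 4 of 29 tested and not called. Shown are the windows of Syt1, Rab3a and Vamp1, which hold the letters more than once and whose signal was lower after knockdown, of Rab3c, which holds them once and was higher, and of Slc18a2 and Slc32a1, the called transporters with the smallest adjusted p in each direction, which do not hold them. Each runs 5′ to 3′ towards the start, with CCAAT or ATTGG in capitals.
Syt1 (GRCm38.p6 chr10:109010976-109011225, minus strand): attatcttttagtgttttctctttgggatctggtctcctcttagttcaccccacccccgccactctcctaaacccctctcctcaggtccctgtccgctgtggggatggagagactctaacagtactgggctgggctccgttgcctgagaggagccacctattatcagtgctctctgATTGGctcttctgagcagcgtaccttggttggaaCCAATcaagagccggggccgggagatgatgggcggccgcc
Rab3a (GRCm38.p6 chr8:70754453-70754702, plus strand): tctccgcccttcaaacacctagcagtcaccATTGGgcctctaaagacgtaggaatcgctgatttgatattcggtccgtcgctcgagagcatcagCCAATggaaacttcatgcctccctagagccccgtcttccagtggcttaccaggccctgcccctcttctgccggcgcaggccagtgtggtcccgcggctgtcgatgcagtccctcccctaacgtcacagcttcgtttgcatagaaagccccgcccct
Vamp1 (GRCm38.p6 chr6:125215331-125215580, plus strand): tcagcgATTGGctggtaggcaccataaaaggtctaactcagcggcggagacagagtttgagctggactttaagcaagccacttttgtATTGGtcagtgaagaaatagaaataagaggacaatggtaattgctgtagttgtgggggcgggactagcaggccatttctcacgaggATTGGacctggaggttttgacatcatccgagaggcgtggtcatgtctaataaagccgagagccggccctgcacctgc
Rab3c (GRCm38.p6 chr13:110280207-110280456, minus strand): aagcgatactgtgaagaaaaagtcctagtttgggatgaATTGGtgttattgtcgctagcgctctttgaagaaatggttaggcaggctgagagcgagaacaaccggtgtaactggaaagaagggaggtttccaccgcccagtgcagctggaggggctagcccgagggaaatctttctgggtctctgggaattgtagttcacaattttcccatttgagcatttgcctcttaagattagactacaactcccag
Slc18a2 (GRCm38.p6 chr19:59260628-59260877, plus strand): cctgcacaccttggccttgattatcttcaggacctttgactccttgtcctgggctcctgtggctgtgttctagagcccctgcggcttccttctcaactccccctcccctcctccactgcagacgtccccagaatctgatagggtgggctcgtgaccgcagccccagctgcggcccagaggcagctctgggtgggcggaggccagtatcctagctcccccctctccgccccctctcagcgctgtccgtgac
Slc32a1 (GRCm38.p6 chr2:158610508-158610757, plus strand): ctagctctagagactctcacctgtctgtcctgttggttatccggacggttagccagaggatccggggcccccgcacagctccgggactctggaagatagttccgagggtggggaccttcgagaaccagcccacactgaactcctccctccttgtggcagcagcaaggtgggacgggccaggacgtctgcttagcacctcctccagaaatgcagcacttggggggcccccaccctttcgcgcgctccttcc
In the window of Syt1 the matches began at -74 and -40, counted from -1 for the base before the start, in opposite orientation. Vamp1 held 3 matches, all on the opposite strand, beginning at -244, -163 and -77. Both Syt1 and Rab3a had a second window in the table, without the letters. The cyclic AMP response element TGACGTCA was searched in the same windows, outside the plan. It occurred in Chgb, Scg2 and Syn1 alone among these members, and in no called member. That is 5.08% of member windows, against 2.24% of windows of genes tested and 1.55% of all windows. A match is a description of letters and was not tested for binding, and start sites in N2a cells were not measured.

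**Figure D1:**
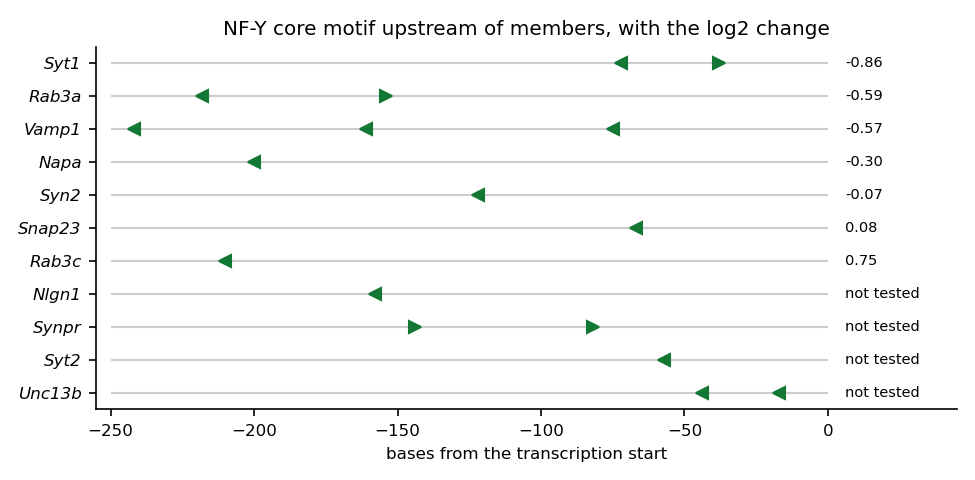
Positions of CCAAT, on either strand, in the 250 bases before the annotated start of members, with the horizontal axis in bases from the transcription start and 1 row per gene. Triangles point right for CCAAT on the strand of the gene and left for the opposite strand, and the number at the right is the log2 change, knockdown minus control. The 11 members with a match are drawn, of which 7 were tested, running from -0.86 in Syt1 to 0.75 in Rab3c.

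Over the whole list, 5 of the 49 tested members were called lower (10.2%) and 4 higher (8.16%), beside 5.0% and 3.91% of all genes tested. Slc18a2, Syt1, Lrrtm3, Sv2c and Rab3a were lower, and Slc17a6, Slc32a1, Bsn and Rab3c were higher. Without the fold limit 13 members had an adjusted p under 0.05 with a lower signal (26.5%, beside 15.8% of all genes) and 8 with a higher signal (16.3%, beside 15.7%). The median change of the 49 members was -0.074, that of all genes tested 0.0053. The 3 knockdown arrays lay wholly below the 3 controls for 16 of the 49 tested members and wholly above them for 10 of the 49. Of all genes tested 27.1% and 27.7% did so. These counts describe the list and no test was run on it as a set. Of the 49 tested members 42 were well above background on all 6 arrays, and no member spot was saturated. Lrrtm2 passed the filter in the knockdown arrays alone.

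**Figure D2:**
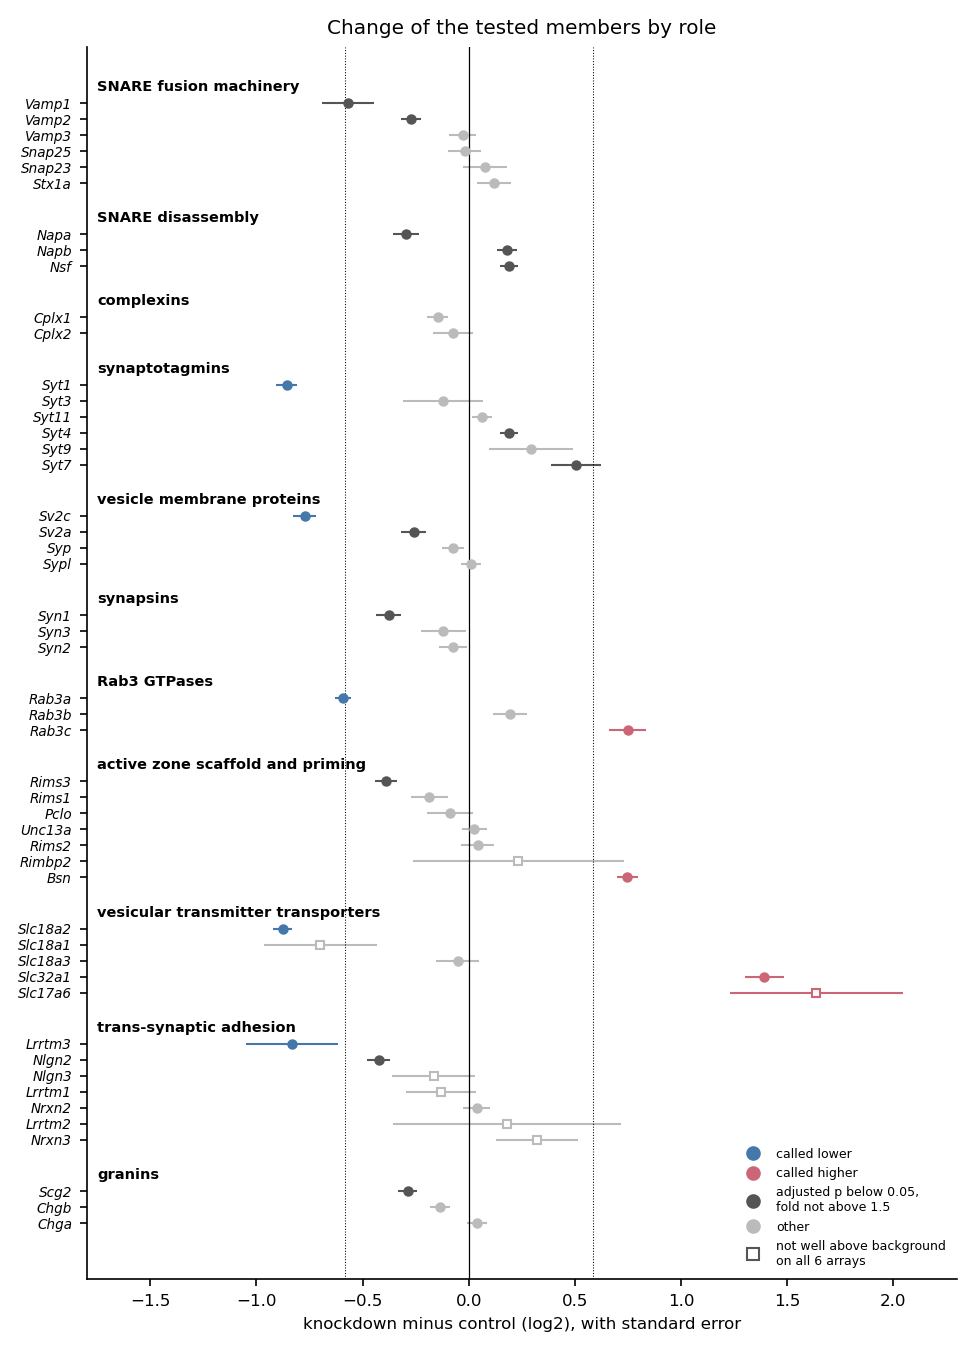
Change of each tested member, knockdown minus control on the log2 scale, grouped by role, with bars of 1 standard error from the limma fit (n = 3 per group). Open squares mark genes not well above background on all 6 arrays, among them Slc17a6, whose fitted value is no measure of size. Most members lie within 0.5 of 0, and the called members are spread over 6 roles, with both directions among the Rab3 proteins and the transporters.

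The vesicular transporters, which load vesicles with transmitter, held the largest changes in each direction. Slc18a2 encodes VMAT2, the carrier of monoamines. Its level was 2.67, 2.73 and 2.72 on the control arrays and 1.85, 1.85 and 1.79 on the knockdown arrays. All knockdown arrays lay below all controls, by more than the spread within either group. The change was -0.88 ± 0.044 (SE, n = 3 per group, adjusted p = 0.000549), or 1.84-fold lower, and a second probe of the gene, also called, changed by -0.80. Th, the rate-limiting enzyme of catecholamine synthesis and a marker of the lineage, changed by -0.62 ± 0.048 (SE, n = 3 per group, adjusted p = 0.00154), and Dbh, which makes noradrenaline, by -0.061 (adjusted p = 0.443). Slc32a1 encodes VGAT, the carrier of GABA and glycine. Its level was -2.85, -2.64 and -2.72 in controls and -1.21, -1.36 and -1.47 after knockdown, with no overlap. The probe changed by 1.39 ± 0.091 (SE, n = 3 per group, adjusted p = 0.00102), 2.62-fold higher. A second probe to the same transcript accession, well above background on all 6 arrays as well, changed by 0.085 (adjusted p = 0.592), so the rise was read by 1 of 2 probes. Averaged over both, the change was 0.74 and still passed the threshold.

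Slc17a6 encodes VGLUT2, a carrier of glutamate, and stood at the edge of detection. Its level was -7.77, -7.69 and -7.09 in controls and -5.38, -6.70 and -5.56 after knockdown. The probe cleared the background test in 0 of 3 controls and in 2 of 3 knockdown samples, with knockdown replicate 2 the lowest of its group. Limma called the gene higher (adjusted p = 0.0437). As no control cleared the background test, no fold is given. The call was lost on leaving out any single array but knockdown replicate 2. Slc18a1, which encodes VMAT1, the monoamine carrier of endocrine cells, went from well above background on 3 of 3 control arrays to 0 of 3 knockdown arrays. Its levels were -4.65, -5.66 and -5.01 against -5.91, -5.70 and -5.80, with the lowest control next to the highest knockdown array, and the difference did not pass the test (adjusted p = 0.130). Slc18a3, the acetylcholine carrier, changed by -0.052 (adjusted p = 0.752). Slc17a7, which encodes VGLUT1, was well above background on 0 of 6 arrays.

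**Figure D3:**
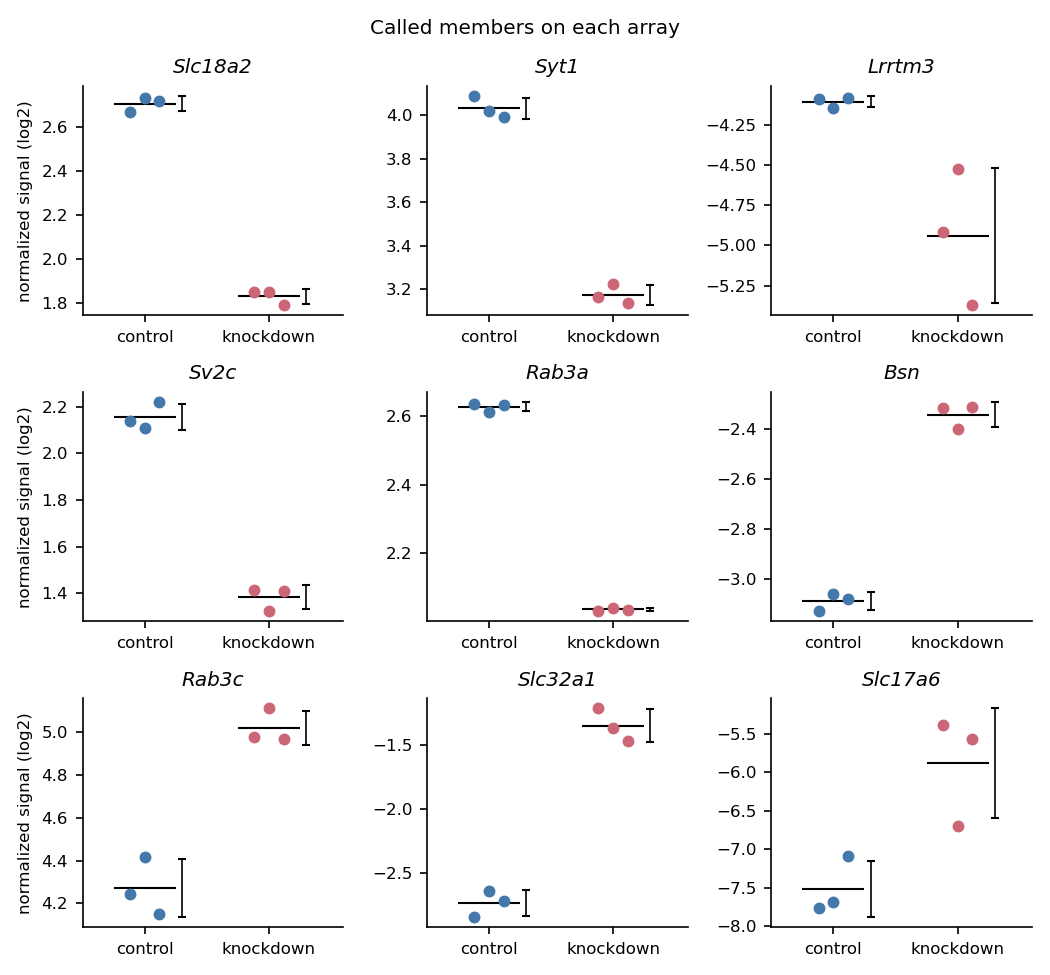
Level of each of the 9 called members on each array, as log2 signal relative to the array's 75th percentile, with points for arrays, a line for the group mean and a bar of 1 SD (n = 3) beside it. The vertical axis has its own range in each panel. The 3 control and 3 knockdown arrays do not overlap in any panel, and the knockdown arrays spread most in Slc17a6 and Lrrtm3.

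Among the calcium sensors, Syt1, the synaptotagmin of fast release, was lower. Its level was 4.09, 4.02 and 3.99 in controls and 3.16, 3.23 and 3.13 after knockdown. Each knockdown array was about the same distance below the controls. The change was -0.86 ± 0.051 (SE, n = 3 per group, adjusted p = 0.000784), 1.81-fold lower. It is one of the members whose promoter holds CCAAT more than once, as printed above. The remaining 5 tested synaptotagmins did not share its direction beyond the test. Syt4, a synaptotagmin of dense-core vesicles, was at 1.19, 1.18 and 1.2 in controls and 1.41, 1.38 and 1.34 after knockdown and changed by 0.19 (adjusted p = 0.0304), higher but under the fold limit. Syt7, a slow high-affinity sensor, was at -4.04, -4.26 and -4.43 in controls and -3.76, -3.83 and -3.63 after knockdown. It changed by 0.51 (adjusted p = 0.0349), also higher and under the limit, which it passed without control replicate 1 (0.61). A second probe of Syt7 had the opposite sign, at -0.40 (adjusted p = 0.168). Syt3 (-0.12), Syt9 (0.29) and Syt11 (0.062) did not pass the test. Syt2 lay below the filter. It was at -8.21, -8.37 and -8.29 in controls and at -4.60, -7.73 and -7.90 after knockdown, and was well above background on knockdown replicate 1 alone.

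Of the membrane proteins of the vesicle, Sv2c, a member of the SV2 glycoprotein family, was called lower. Its level was 2.14, 2.11 and 2.22 in controls and 1.41, 1.32 and 1.41 after knockdown. The groups did not overlap. The change was -0.77 ± 0.053 (SE, n = 3 per group, adjusted p = 0.00117), 1.71-fold lower. A second probe of the same accession changed by -0.17 (adjusted p = 0.111), and the call was lost at -0.47 when both were averaged. Sv2a, the widely expressed SV2, was at 0.45, 0.47 and 0.43 in controls and 0.22, 0.091 and 0.25 after knockdown and changed by -0.26 (adjusted p = 0.0326), lower but under the fold limit. Syp, synaptophysin, an abundant protein of the vesicle membrane, was at 2.06, 2.0 and 1.93 in controls and 1.94, 1.93 and 1.90 after knockdown. Its groups overlapped and it changed by -0.074 (adjusted p = 0.352). Sypl, a synaptophysin relative found beyond neurons, changed by 0.011. Synpr and Sv2b lay below the filter.

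Synapsins tether vesicles to actin and to each other. Syn1 was at 2.87, 2.86 and 2.74 in controls and 2.47, 2.39 and 2.49 after knockdown, without overlap. It changed by -0.38 ± 0.059 (SE, n = 3 per group, adjusted p = 0.0112), 1.30-fold lower and so under the fold limit. Syn2 was at 3.96, 3.98 and 3.79 in controls and 3.85, 3.82 and 3.84 after knockdown, with overlap, and changed by -0.075 (adjusted p = 0.469). Syn3 changed by -0.12 (adjusted p = 0.474). A second probe of Syn2, to another transcript accession, changed by -0.19 (adjusted p = 0.0363).

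The Rab3 GTPases, which bring vesicles to the active zone, moved apart from each other. Rab3a, the main Rab3 of neurons, was at 2.64, 2.61 and 2.63 in controls and 2.03, 2.04 and 2.04 after knockdown. Replicates differed by hundredths, and the groups by far more than that. The change was -0.59 ± 0.037 (SE, n = 3 per group, adjusted p = 0.000929), 1.51-fold lower and just past the limit, and it fell under it with quantile normalization (-0.55) and with normexp (-0.53). Rab3c was at 4.24, 4.42 and 4.15 in controls and 4.98, 5.11 and 4.97 after knockdown, with every knockdown array above every control. The change was 0.75 ± 0.087 (SE, n = 3 per group, adjusted p = 0.00462), 1.68-fold higher. Its second probe changed by 0.72 and was called, whereas the third, dimmer one changed by -0.32 (adjusted p = 0.0489). Averaged over its probes the gene changed by 0.39 and was not called. With slide row as a block, which left knockdown replicate 1 alone against the controls, Rab3c changed by 0.71. Rab3b changed by 0.19 (adjusted p = 0.152).

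The scaffold of the active zone held 1 called member. Bsn encodes Bassoon, a very large protein that, with Piccolo, organises the site of release. Its level was -3.13, -3.06 and -3.08 in controls and -2.32, -2.40 and -2.31 after knockdown, with no overlap and little spread. The change was 0.75 ± 0.048 (SE, n = 3 per group, adjusted p = 0.000972), 1.68-fold higher. With normexp it was 0.46 and not called. Pclo, its relative Piccolo, changed by -0.089 (adjusted p = 0.611), and by 0.41 (adjusted p = 0.127) on a second probe. Rims3, a short RIM protein, was at 2.07, 2.09 and 2.14 in controls and 1.78, 1.67 and 1.68 after knockdown and changed by -0.39 ± 0.052 (SE, n = 3 per group, adjusted p = 0.00656), lower but under the fold limit. The longer RIM genes Rims1 (-0.19) and Rims2 (0.043), and Unc13a, a Munc13 priming factor (0.025), did not pass the test. Rimbp2, which links RIMs to calcium channels, was not well above background on all 6 arrays and changed by 0.23 (adjusted p = 0.775).

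Of the 6 genes of the fusion machinery proper limma called 0, and 0 passed the fold limit at an unadjusted p under 0.05. Snap25, a SNARE of the plasma membrane, was at 2.76, 2.97 and 2.94 in controls and 2.79, 2.90 and 2.93 after knockdown. The groups overlapped, the change was -0.018 (adjusted p = 0.892), and its sign turned with quantile normalization and on leaving out control replicate 2, control replicate 3 or knockdown replicate 1. Stx1a changed by 0.12, Snap23 by 0.079 and Vamp3 by -0.029, none past the test. The vesicle SNAREs Vamp1 and Vamp2 were lower. Vamp1 was at -2.05, -1.94 and -2.18 in controls and -2.78, -2.68 and -2.41 after knockdown, and changed by -0.57 ± 0.12 (SE, n = 3 per group, adjusted p = 0.0277). That is 1.48-fold, close to the limit, and it was called with quantile normalization (-0.61), with scaling on the array median (-0.68), without control replicate 3 (-0.63) and without knockdown replicate 3 (-0.68). Vamp2, the main vesicle SNARE, was at 2.14, 2.23 and 2.16 in controls and 1.86, 1.90 and 1.95 after knockdown and changed by -0.27 ± 0.049 (SE, n = 3 per group, adjusted p = 0.0163). Among the genes of SNARE disassembly, Nsf, the ATPase, was at 3.54, 3.54 and 3.6 in controls and 3.77, 3.74 and 3.73 after knockdown and was higher by 0.19 (adjusted p = 0.0311). Napb, a SNAP adaptor of neurons, was at 1.34, 1.37 and 1.29 and 1.54, 1.52 and 1.48 and was higher by 0.18 (adjusted p = 0.0461), with a second probe at 0.27. Napa, the SNAP adaptor of most tissues, went the other way, from 3.42, 3.32 and 3.25 to 3.07, 3.01 and 3.03, a change of -0.30 (adjusted p = 0.0239), while its second probe changed by -0.043 (adjusted p = 0.644). All 3 stayed under the fold limit. Complexins, which clamp and assist the SNAREs, did not pass the test. Cplx2 was at 5.22, 5.42 and 5.40 in controls and 5.13, 5.39 and 5.30 after knockdown and changed by -0.075 (adjusted p = 0.621), while Cplx1 changed by -0.15 (adjusted p = 0.102). The dimmest of the 4 probes of Cplx2 changed by -0.38 (adjusted p = 0.00514), and the others by 0.11 or less in size.

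**Figure D4:**
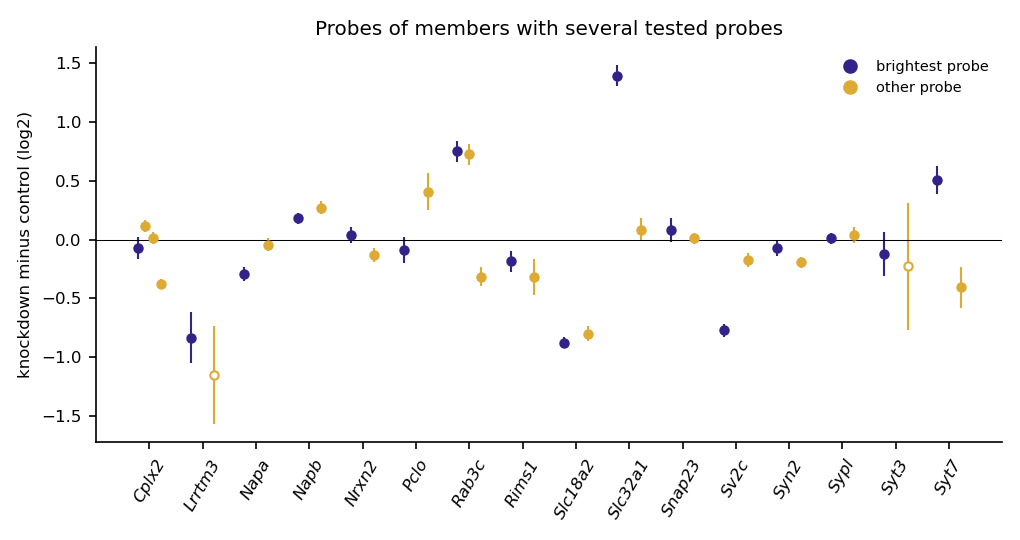
Change of every tested probe, knockdown minus control on the log2 scale, of the 16 members with several tested probes, with bars of 1 standard error and open circles for probes not well above background on all 6 arrays. The probes of Slc32a1, Sv2c, Rab3c and Syt7 lie apart from each other, and no member has probes called in opposite directions.

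Adhesion proteins join both sides of the synapse. Lrrtm3, a postsynaptic partner of neurexins, was called lower. Its level was -4.09, -4.14 and -4.08 in controls and -4.92, -4.53 and -5.37 after knockdown. The controls lay within hundredths of each other while the knockdown arrays spread more widely. The change was -0.83 ± 0.22 (SE, n = 3 per group, adjusted p = 0.0496), 1.78-fold lower, at the edge of the threshold, and the call was lost on leaving out any single array but knockdown replicate 2. A second, dimmer probe changed by -1.15 (adjusted p = 0.114). Nlgn2, a neuroligin of inhibitory synapses, was at 3.41, 3.36 and 3.33 in controls and 3.01, 2.88 and 2.94 after knockdown and changed by -0.42 ± 0.053 (SE, n = 3 per group, adjusted p = 0.00572), lower but under the fold limit. Nrxn2, a presynaptic neurexin, was at 3.45, 3.44 and 3.27 in controls and 3.42, 3.43 and 3.42 after knockdown. It changed by 0.038 (adjusted p = 0.713), and its sign turned with scaling on the array median, with the mean of its probes and without control replicate 3. Nrxn3 (0.32), Nlgn3 (-0.17), Lrrtm1 (-0.13) and Lrrtm2 (0.18) did not pass the test, and none of these 4 was well above background on all 6 arrays.

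Granins fill dense-core granules. Scg2, secretogranin II, was at 5.41, 5.32 and 5.40 in controls and 5.09, 5.09 and 5.09 after knockdown, without overlap. It changed by -0.29 ± 0.044 (SE, n = 3 per group, adjusted p = 0.00994), 1.22-fold lower and under the fold limit. Chgb, chromogranin B, was at 6.53, 6.47 and 6.53 in controls and 6.43, 6.34 and 6.35 after knockdown and changed by -0.14 (adjusted p = 0.108). Chga, chromogranin A, changed by 0.040 (adjusted p = 0.596).

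The list leaves out many proteins of the same pathway, so a second list of 114 further genes of release and recycling was read in the same fit, of which 96 were tested. Of these, 9 were called lower (9.38%, beside 5.0% of all genes) and 3 higher (3.12%, beside 3.91%), with a median change of -0.058. The lower genes reached from the Rab cycle to peptide processing. Rab27a, a Rab of secretory granules, changed by -1.45 ± 0.29 (SE, n = 3 per group, adjusted p = 0.0231), with the knockdown arrays at -3.67, -3.47 and -2.64 against -1.98, -1.79 and -1.66 in controls. That call was lost without control replicate 1, 2 or 3 or without knockdown replicate 1 or 2. Rims4, the other short RIM protein, was at -2.75, -2.77 and -2.75 in controls and -4.02, -3.87 and -3.84 after knockdown and changed by -1.16 ± 0.060 (SE, n = 3 per group, adjusted p = 0.000598), 2.23-fold lower. Cpe, carboxypeptidase E, which trims peptide hormones, went from 4.41, 4.36 and 4.47 to 3.49, 3.45 and 3.47, a change of -0.94 ± 0.048 (SE, n = 3 per group, adjusted p = 0.000558). Rab3gap2, part of the enzyme that switches Rab3 off, went from 0.68, 0.60 and 0.57 to -0.25, -0.25 and -0.30, a change of -0.88 ± 0.049 (SE, n = 3 per group, adjusted p = 0.000681). Snap91, the clathrin adaptor AP180, went from 0.71, 0.69 and 0.84 to -0.047, -0.040 and -0.095, a change of -0.81 ± 0.058 (SE, n = 3 per group, adjusted p = 0.00127). The groups of these genes did not overlap. Scamp5 (-0.62), Scg5 (-0.59) and Pcsk1 (-0.59), which the rule for naming genes did not reach and which were named after their values were seen, were also lower. Cpe, Scg5 and Pcsk1 belong to the 10 genes listed for granins and peptide processing, all of them tested. Of those 10 genes 3 were called lower, beside 5.0% of all genes, and of the 3 granins among the members 0 were called. No test was run on this role as a set. Among the higher genes Rimbp3 went from -2.39, -2.46 and -2.32 to -1.58, -1.62 and -1.78, a change of 0.73 (adjusted p = 0.00324). With normexp Rimbp3 changed by 0.44 and was not called. Apba1, the Munc18-binding adaptor Mint1, went from -0.92, -1.0 and -0.98 to -0.34, -0.44 and -0.30, a change of 0.61 (adjusted p = 0.00254). Apba1 was not called without knockdown replicate 3, with scaling on the array median or with normexp. Slitrk4 also passed (adjusted p = 0.0211) but was well above background on 0 of 6 arrays, so no fold is given. Its controls were at -8.33, -8.45 and -7.46, and it reached the signal filter through the knockdown arrays alone. With the filter set on all 6 arrays Slitrk4 was not tested, and 2 further genes were called higher. The call of Slitrk4 was lost on leaving out control replicate 1 or 2 or any knockdown array.

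**Figure D5:**
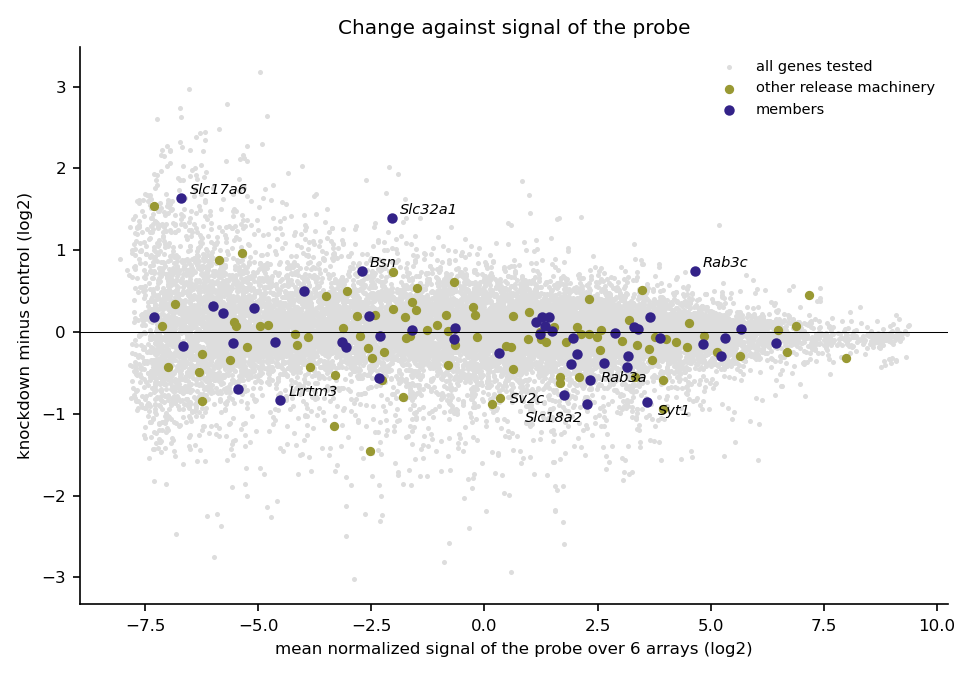
Change, knockdown minus control on the log2 scale, against the mean log2 level of the probe over the 6 arrays, for all 16490 genes tested in grey, the 96 further release genes in olive and the 49 members in blue. Slc17a6 sits among the dimmest probes, where changes scatter most, while Syt1, Rab3a, Slc18a2 and Sv2c lie at bright levels.

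Slide row was not independent of group, so the changes were also read within row 1, where 3 controls and 1 knockdown array lay side by side. There Slc18a2, Syt1, Sv2c, Rab3a and Lrrtm3 were lower, by changes from -0.87 in Syt1 to -0.60 in Rab3a, and Bsn, Rab3c and Slc32a1 were higher, by 0.71 in Rab3c to 1.53 in Slc32a1. With 1 knockdown array in row 1 these are values without a test. Row 2 held knockdown arrays alone, so a fit with row as a block gave the same changes and is no separate check. Slc18a2, Syt1 and Slc32a1 were called at the same threshold in all 19 alternative fits, Sv2c and Bsn in 18, and Rab3a and Rab3c in 17. Lrrtm3 was called in 10 of 19 and Slc17a6 in 8 of 18. The row block is among these fits, and its outcome rests on knockdown replicate 1 alone.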

How the data were processed

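Total RNA of 6 N2a samples (3 empty vector controls, 3 knockdowns of NF-YA and NF-YC) was labelled with Cy3 and hybridised to 1-colour Agilent SurePrint G3 Mouse GE 8x60K arrays. The deposited scanner tables hold intensity values per spot (processed, median and background signal), made by the authors with Agilent Feature Extraction 10.10.1.1. The deposited value table holds log2 values of the same arrays, which differed from the scaling used here by at most 0.0076 between arrays over 43557 single-spot probes. It was used as an alternative.

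From these files, log2 processed signal was scaled on each array's 75th percentile, spots flagged as outliers were left out and spots of a probe were averaged. A probe was tested if it reached the 20th percentile of spots on all 3 arrays of a group (42126 probes), with limma 3.58.1 in R 4.3.3, two-sided, Benjamini-Hochberg adjustment over all probes. The percentile was first taken over probes. It was changed to spots after those results had been seen, and the former is kept as an alternative. A gene stood for its brightest probe, named through the probe's RefSeq accession in a GRCm38.p6 table, which matched 25869 of 26392 probes with an NM accession. The array's number of samples, 3 per group, limits the precision. Groups came from the sample titles. The fit was tested on simulated data. Genes named with full values were all called members, all members with an adjusted p under 0.05, the brightest member of each role, up to 5 called genes per direction of the second list, and Nfya and Nfyc. The members and lists were chosen with earlier results of these data known. Normexp used the median signal, since the tables used here hold no mean signal. Alternatives covered scaling, background, filters, variance model, replicate and slide row blocks, the mean of probes, thresholds and leaving out each array. A called gene of the second list is counted but not reported here by name.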

Additional observations from a re-analysis of the deposited data

How the results depend on the processing

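With each array left out in turn, the members called lower numbered 4 to 5 and those called higher 3 to 4, beside 4.53% to 5.04% and 3.32% to 3.68% of all genes, the median change of the members was -0.063 to -0.029, and the further release genes called numbered 7 to 8 lower and 1 to 3 higher. Without knockdown replicate 3 only 1 further release gene was called higher. With normexp 3 members were called lower and 2 higher and 0 further genes higher (also 0 at an unadjusted p under 0.05), with a member median of -0.035, beside 3.33% and 1.75% of all genes. Slide row as a block rests on knockdown replicate 1 alone, so its counts are not given. The member median was -0.015 with quantile normalization, -0.18 with scaling on the array median, where that of all genes was -0.10, -0.052 without a filter on low signal and -0.052 with the mean of a gene's probes. Without a minimum fold 13 members were called lower and 8 higher, and 21 and 13 further genes, beside 15.8% and 15.7% of all genes. Above 2-fold limma called 0 members lower, also 0 at an unadjusted p under 0.05, and 2 higher, and 2 and 1 further genes. The 2 higher members were Slc32a1 and Slc17a6, and the higher further gene was Slitrk4. No control array was well above background for Slc17a6, and no array for Slitrk4, so their folds are no measure of size. The share of all genes above 2-fold is not given, so these counts are not compared with it. The sign of Snap25 turned to 0.016 with quantile normalization, 0.020 without control replicate 2, 0.008 without control replicate 3 and 0.023 without knockdown replicate 1, and the single-array omissions ran from -0.083 to 0.023. That of Nrxn2 turned to -0.070 with scaling on the array median, -0.047 with the mean of its probes and -0.021 without control replicate 3, with omissions from -0.021 to 0.070. That of Cplx2 turned to 0.076 with normexp. The filter taken over probes, added after seeing the data, gave 5 of 50 tested members lower and 4 higher, beside 4.99% and 3.91% of all genes.

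Deviations of same-numbered control and knockdown arrays correlated weakly (0.018, 0.067 and 0.0025), and 3 of 6 arrays correlated best with their own number. With 3 arrays per group this cannot tell whether the numbers pair the samples. With the replicate number as a block 4 members were called lower and 3 higher, beside 4.64% and 3.14% of all genes, and 8 and 3 further genes, with a member median of -0.074. Slc17a6 and Lrrtm3 were not called in that fit. The causes of these differences were not tested. With 3 arrays per group and 7 of the 49 tested members not well above background on at least 1 array, changes of dim probes are the least certain.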
